A study of Homo sapiens with 8 samples.

Results

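The nuclear genes for subunits of the respiratory chain and ATP synthase were measured in 2 established cell lines of human lung adenocarcinoma, A549 and PC9, with and without forced expression of EN2, an engrailed homeobox transcription factor. Genes were taken by symbol: NDUFA, NDUFB, NDUFC, NDUFS and NDUFV for complex I, SDHA to SDHD for complex II, UQCR for complex III, COX4 to COX8 for complex IV and ATP5 for complex V, without assembly factors and pseudogenes. This gave 83 of the 18244 genes on the array, 36 in complex I, 3 in complex II, 8 in complex III, 17 in complex IV and 19 in complex V. The symbol rule also takes in NDUFAB1, an acyl carrier protein, ATP5IF1, an inhibitor of the ATP synthase, and COX7A2L, a factor of supercomplexes.

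Each line carried either an EN2 retrovirus or the Neo vector, the control in both lines, made in 293FT packaging cells. Infected cells were selected with a drug that the labels spell genemycin, so every group had been infected and selected. Whether they were pools or clones is not given in the sources used here, and neither is the promoter driving EN2. A549 was grown in F-12K and PC9 in DMEM, so line and medium cannot be told apart. There were 2 arrays in each of the 4 groups (EN2 and vector in A549, EN2 and vector in PC9), and nothing in the labels says that they came from separate cultures. The p-values therefore measure the spread between these arrays, which may be technical. Values are RMA log2 signals, and a change is the EN2 mean minus the vector mean of the same line.

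The respiratory chain lies in the inner mitochondrial membrane. Complex I takes electrons from NADH and complex II from succinate, complex III passes them to cytochrome c, and complex IV reduces oxygen with them. The proton gradient built by complexes I, III and IV drives complex V, which makes ATP. Most subunits are encoded in the nucleus, many from promoters with sites for NRF1, for GABP of the ETS family or for YY1.

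A549 and PC9 both carried the epithelial signature of their label. All 6 epithelial markers (4 keratins, CDH1 and EPCAM) lay above the spike-in background, the 95th percentile of 100 ERCC probe sets, which was 4.41 in A549 and 3.89 in PC9. EPCAM was lower in A549 (5.65 as the mean of its arrays) than in PC9 (12.01). In A549, 4 of the 6 epithelial markers were called lower with EN2 (1.15% of all genes were), and in PC9 0 of 6 were (0.219% of all genes). Of other cell types, PTPRC, the pan-leukocyte gene, lay below background in both lines (3.55 and 2.91), as did the fibroblast genes COL3A1 and DCN. Further markers lay above it in A549 and PC9, CD3E of T cells at 6.03 and 5.52, COL1A1 at 4.84 and 5.86, PDGFRB at 6.4 and 5.29, and the endothelial PECAM1 at 6.27 and 6.02. The endothelial CDH5 lay below background in A549 (4.24) and above it in PC9 (6.33). The lung markers lay above background in both lines, NKX2-1 at 6.65 and 6.51, SFTPB at 5.98 and 6.33, and SFTPC at 7.5 and 6.87. EN2 itself read 7.71 and 7.62 on the EN2 arrays of A549, and 6.48 and 6.57 with vector (limma adjusted p = 0.00028). In PC9 it was 6.24 and 6.39 against 5.86 and 5.78, which did not pass (limma adjusted p = 0.0801). Of the subunit genes, COX7B2 lay below background in both lines and COX8C in A549. Within a group the subunit genes had a median SD of 0.036 and a highest SD of 0.434 (n = 2 arrays).

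In A549 the subunit genes sat slightly but broadly lower with EN2. Of 83 genes, 2 fell, NDUFS3 and NDUFA10 of complex I, none rose and 81 did not pass limma's test at an adjusted p of 0.05. Over all genes, 1.15% fell and 1.57% rose. The median change was −0.093 (1.07-fold lower) against −0.0015 over all genes, and changes ran from −0.38 to 0.14. The change was below 0 in 76 of 83 genes (91.6%, against 50.6% of all genes). Most members are bright, so genes with a mean signal above 10 were also fitted alone, a limit added after seeing the data. There 2 of 70 members and 41 of all 1809 genes fell, and 0 and 21 rose. The change was below 0 in 92.9% of these members and 55.9% of these genes, with medians of −0.088 and −0.020. Both EN2 arrays lay below both vector arrays in 52 of 83, where 23.5% of all genes did so. They lay above both in 5 of 83, against 24.1% of all genes. At an unadjusted p of 0.05, 25 of 83 were lower and 0 higher, against 7.54% and 9.87% of all genes. That count of 25 was 7 without A549 EN2 replicate 1 and 8 without A549 vector replicate 2. The list was described by these counts alone, and no test was made over it.

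The A549 arrays also differed in a control signal. The 18S rRNA probe sets, as a mean of 3, read 11.66 and 12.12 on the EN2 arrays and 12.44 and 12.74 on the vector arrays, without overlap, and 6.05 to 6.10 on the PC9 arrays. The actin 3′ minus 5′ signal, a measure of RNA integrity, was 0.98 and 0.88 with EN2 against 0.79 and 0.78 with vector in A549. In PC9 it was 1.29 and 1.03 against 1.09 and 1.13. Fitted with that 18S rRNA signal as covariate, the median A549 change of the subunits was −0.031, and without the EN2 array of lowest and the vector array of highest 18S rRNA signal it was −0.059. The changes below 0 then numbered 54 of 83 (65.1%, against 48.4% of all genes) and 67 of 83 (80.7%, against 49% of all genes), and those lower at an unadjusted p of 0.05 numbered 1 and 4. No member was called in either fit. By complex, from I to V, the medians were −0.12, −0.18, −0.073, −0.050 and −0.13 in the main fit. With the covariate they were −0.035, −0.095, −0.049, −0.060 and −0.0072. Without those 2 arrays they were −0.048, −0.13, −0.055, −0.063 and −0.075. The median standard error of a member was 0.065 in the main fit and 0.115 with the covariate. A lower array signal in bulk RNA cannot tell less RNA in every cell from fewer cells with it.

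**Figure D1:**
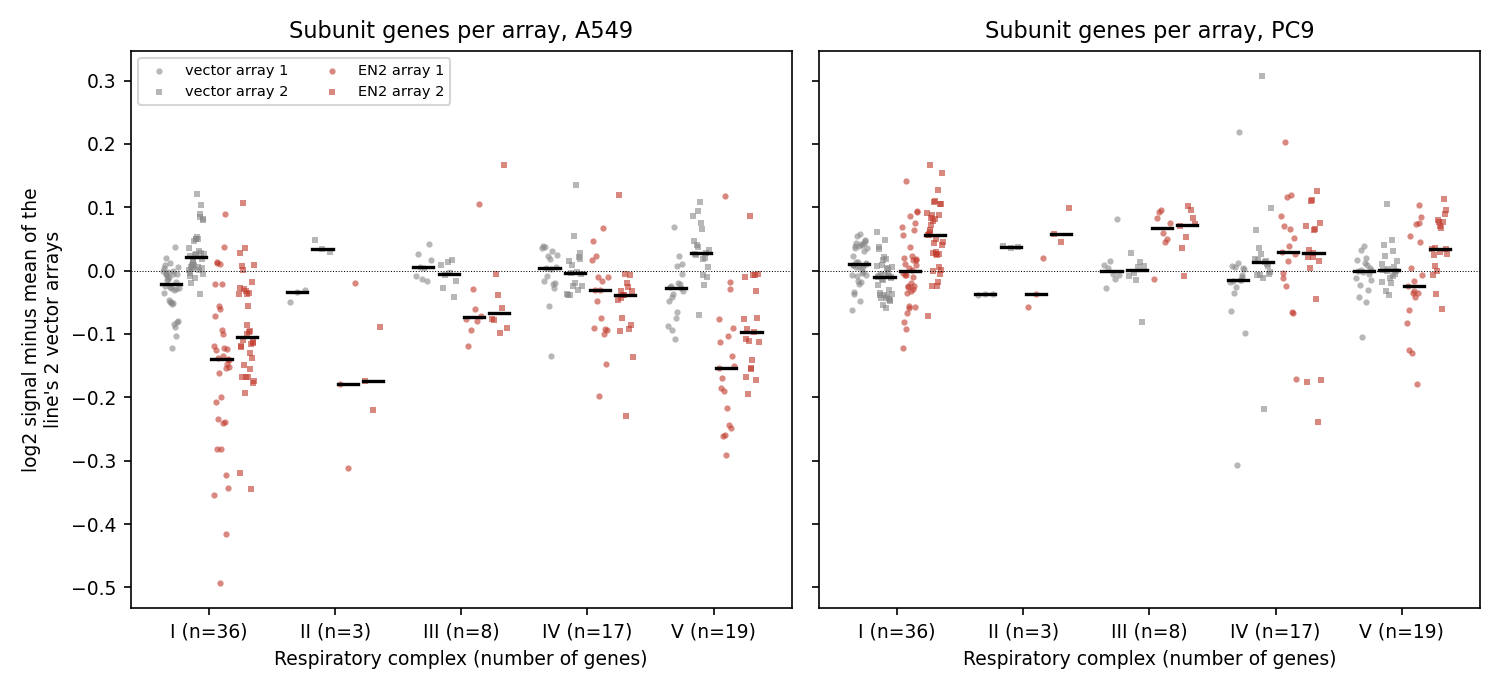
Signal of each subunit gene on each array, minus the mean of the 2 vector arrays of the same line (log2), by respiratory complex, with A549 in one panel and PC9 in the other. Points are genes and bars are medians. The A549 EN2 medians lie below 0 in every complex, from −0.180 to −0.031, and in PC9 they run from −0.037 to 0.072.

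Complex I, the NADH dehydrogenase, held both calls in A549. NDUFS3, a core subunit of the peripheral arm that faces the matrix, read 9.91 and 9.98 with EN2 and 10.23 and 10.41 with vector. It fell by 0.38 ± 0.071 (SE; 1.3-fold; limma adjusted p = 0.0248), and the groups did not overlap. The PC9 arrays read 10.91 and 10.94 with EN2 and 10.94 and 10.92 with vector, so the same gene showed no such separation there.

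NDUFA10, an accessory subunit next to the membrane arm, read 10.05 and 10.08 with EN2 in A549 against 10.37 and 10.44 with vector. It fell by 0.34 ± 0.066 (SE; 1.26-fold; limma adjusted p = 0.03), and all 3 of its probe sets were lower. In PC9 NDUFA10 read 10.36 and 10.41 against 10.42 and 10.54, the lowest change of complex I there (−0.097, limma adjusted p = 0.949). NDUFS3 has a dim further probe set with a change of −0.16, and its call ended with the mean of both (−0.27, limma adjusted p = 0.116). Both calls ended with a constant prior variance (limma adjusted p = 0.0538 for NDUFS3 and 0.0657 for NDUFA10) and with the A549 arrays alone (0.171 and 0.145). Both calls also ended without A549 EN2 replicate 1 (limma adjusted p = 0.177 for NDUFS3 and 0.193 for NDUFA10) and without A549 vector replicate 2 (0.166 and 0.204). The NDUFA10 call ended without A549 EN2 replicate 2 as well (limma adjusted p = 0.0596). Without a PC9 array, which enters only through the shared spread, the limma adjusted p was 0.052 to 0.0549 for NDUFS3 and 0.0485 to 0.0574 for NDUFA10. The changes were, with the covariate, −0.18 for NDUFS3 and −0.24 for NDUFA10 (limma adjusted p = 0.954 and 0.875).

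Across complex I, 33 of 36 changes were below 0 in A549, with a median of −0.12. The redox core, the subunits that carry the flavin and the iron-sulfur clusters with their close partners, had all 6 measured members below 0 in the main fit. With the 18S rRNA covariate NDUFV2 (0.21) and NDUFS8 (0.014) were above 0 and NDUFS1 was at −0.35. NDUFV1, which binds NADH, read 9.10 and 9.27 with EN2 and 9.45 and 9.44 with vector (−0.26, limma adjusted p = 0.0969). NDUFS7 was at −0.12, NDUFS8 at −0.13, NDUFV2 at −0.066 and NDUFS1 at −0.033, none of them called. The NDUFS1 arrays overlapped, with 9.67 and 9.42 against 9.61 and 9.54. Whether NDUFS1 differed from the other core members was not tested.

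Accessory subunits of complex I brace the core and complete the membrane arm. The NDUFA genes were below 0 in 11 of 13, the NDUFB genes in 10 of 11 and the NDUFC genes in both. NDUFB10 read 10.67 and 10.97 with EN2 against 11.14 and 11.19 with vector (−0.34, limma adjusted p = 0.0741). Its EN2 arrays lay far apart for this list, and with the 18S rRNA covariate the change was 0.013. NDUFA3 was at −0.22 (limma adjusted p = 0.0822), with 1 of its 4 probe sets above 0. The highest change of complex I was that of NDUFA6, at 0.059 (limma adjusted p = 0.721).

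Complex II, the succinate dehydrogenase, is also an enzyme of the tricarboxylic acid cycle. SDHC, a membrane anchor, read 10.27 and 10.36 with EN2 in A549 and 10.54 and 10.61 with vector (−0.27, limma adjusted p = 0.0719). SDHA, the flavoprotein, read 9.81 and 9.81 against 9.94 and 10.04 (−0.18, limma adjusted p = 0.214). For each of these genes both EN2 arrays lay below both vector arrays, as in 23.5% of all genes. SDHD, the other anchor, read 10.11 and 10.04 against 10.09 and 10.15, with overlap (−0.054). No member of complex II was called.

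Complex III had no gene at an unadjusted p of 0.05 in A549. The changes of 7 of 8 were below 0, with a median of −0.073. The core proteins UQCRC1 (−0.034) and UQCRC2 (−0.080) and the small subunits UQCRH (−0.069), UQCRQ (−0.081), UQCR10 (−0.076) and UQCR11 (−0.098) each had both EN2 arrays below both vector arrays. Over all genes, 23.5% had this order of arrays in A549. UQCRHL was the exception to the lower changes, with 10.14 and 10.20 against 10.08 and 9.99 (0.14, limma adjusted p = 0.383). It is a near-identical copy of UQCRH, so its signal is uncertain.

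Complex IV, the cytochrome c oxidase, had a median of −0.050 in A549, with 15 of 17 below 0. COX4I1, the general form of the regulatory subunit, read 12.30 and 12.24 with EN2 and 12.32 and 12.25 with vector (−0.014). COX5A (−0.093) and COX7C (−0.12) were lower on both EN2 arrays, and COX5B (−0.037), COX6A1 (−0.0045) and COX6B1 (−0.025) overlapped. Over the 11 general subunits the median was −0.025.

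The tissue-restricted forms of complex IV subunits were dim. COX4I2, the lung form, read 5.78 and 5.85 with EN2 and 5.77 and 5.70 with vector in A549 (0.083, the highest of the complex). COX7A1, the muscle form, gave the lowest change of the complex (−0.15), on arrays that overlapped. COX6A2 (−0.061) and COX6B2 (−0.12) were not called, and COX7B2 and COX8C lay below background in A549.

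Complex V, the ATP synthase, had 18 of 19 changes below 0 in A549, with a median of −0.13. Both EN2 arrays lay below both vector arrays in 15 of 19, against 23.5% of all genes. The median was −0.0072 with the 18S rRNA covariate and −0.075 without the outer 18S rRNA arrays. ATP5PB, the b subunit of the peripheral stalk, read 11.37 and 11.44 with EN2 and 11.59 and 11.64 with vector (−0.21, limma adjusted p = 0.0651). All 4 stalk genes had groups that did not overlap, with a median of −0.12. The catalytic head genes ATP5F1A (−0.12), ATP5F1B (−0.044), ATP5F1C (−0.11), ATP5F1D (−0.18) and ATP5F1E (−0.13) were below 0 in the main fit and none was called. With the 18S rRNA covariate ATP5F1A (0.090), ATP5F1B (0.089) and ATP5F1E (0.015) were above 0.

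The 3 genes for the rotating c-ring all encode the same mature protein. ATP5MC1 (−0.15) and ATP5MC3 (−0.21) were lower and ATP5MC2 was higher (0.10), with no overlap of the groups in any of them. Over all genes, 23.5% lay lower and 24.1% higher without overlap. None of the 3 was called. ATP5IF1, whose product blocks the enzyme when it runs backwards, read 11.19 and 11.25 against 11.35 and 11.54 (−0.23, limma adjusted p = 0.126), the lowest change of the complex.

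**Figure D2:**
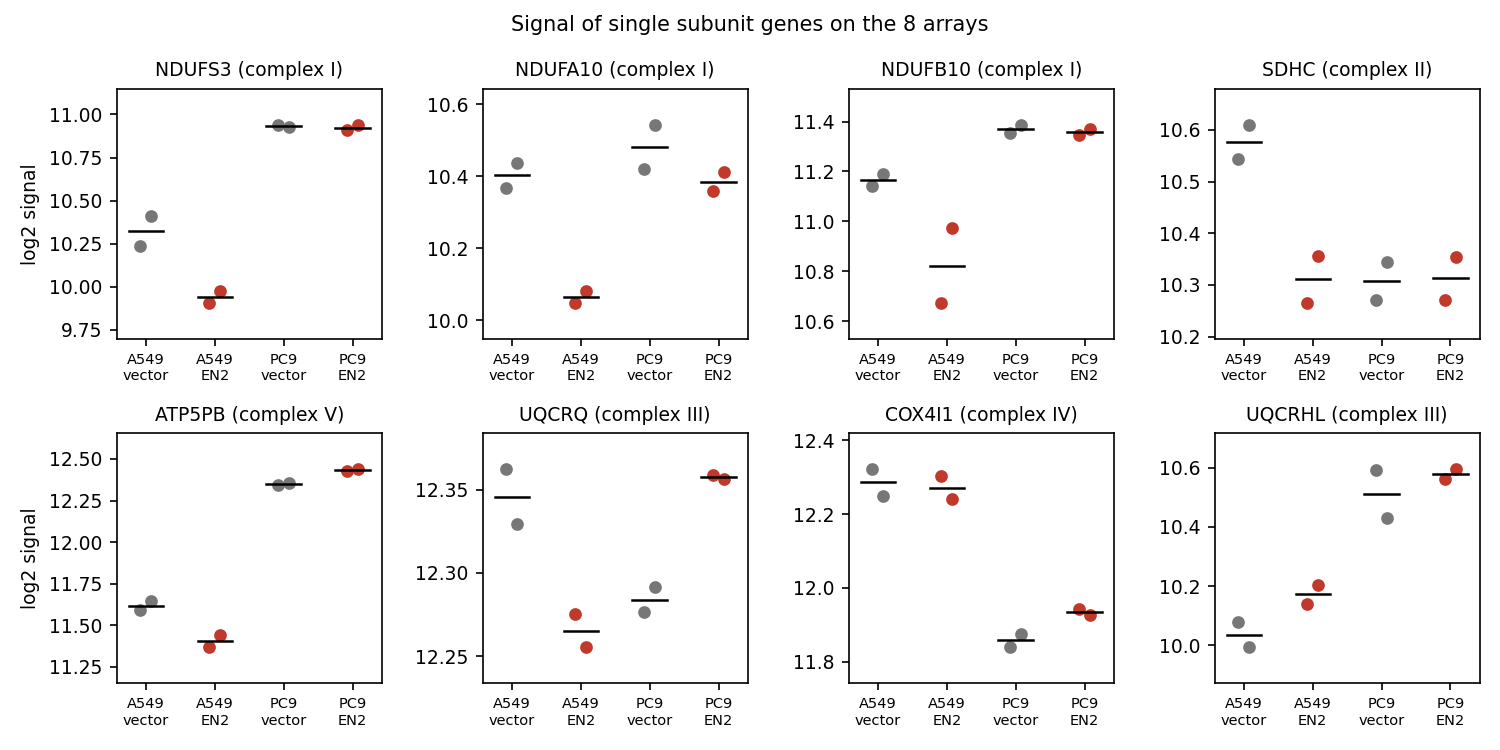
Log2 signal of NDUFS3, NDUFA10, NDUFB10, SDHC, ATP5PB, UQCRQ, COX4I1 and UQCRHL on each of the 8 arrays, by group. Points are arrays and bars are means of 2. The A549 EN2 arrays of NDUFS3 lie at 9.91 and 9.98, under the vector arrays at 10.23 and 10.41, while in PC9 its 4 arrays lie between 10.91 and 10.94.

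The promoters of the called genes and of some core members are given to show the nuclear elements these genes are known for. Promoters of 68 of the 83 members matched the RefSeq table of GRCh38.p14, as windows of 300 bases around the start. The 120 bases just before the start are printed 5′ to 3′ along the gene, and capitals mark exact matches, on either strand, to the palindromic NRF1 site, the ETS core CCGGAAG or the YY1 site. The NRF1 site is the run of capitals in ATP5F1C and the longer run in SDHD. NDUFS3 and NDUFA10 are the called genes, and SDHD, ATP5F1C and COX5B show how the elements lie in complexes II, V and IV.
NDUFS3, chr11:47578954-47579073, plus strand: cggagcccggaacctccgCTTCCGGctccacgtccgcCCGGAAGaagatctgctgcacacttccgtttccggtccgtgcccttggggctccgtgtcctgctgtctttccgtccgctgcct
NDUFA10, chr2:240025343-240025462, minus strand: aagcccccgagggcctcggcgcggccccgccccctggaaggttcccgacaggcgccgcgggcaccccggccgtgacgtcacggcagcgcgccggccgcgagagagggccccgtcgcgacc
SDHD, chr11:112086753-112086872, plus strand: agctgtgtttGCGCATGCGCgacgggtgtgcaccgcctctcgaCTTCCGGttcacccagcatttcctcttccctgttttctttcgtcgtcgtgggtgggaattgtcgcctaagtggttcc
ATP5F1C, chr10:7788057-7788176, plus strand: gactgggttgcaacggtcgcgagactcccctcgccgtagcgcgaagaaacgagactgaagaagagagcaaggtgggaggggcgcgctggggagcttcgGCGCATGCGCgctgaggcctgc
COX5B, chr2:97645942-97646061, plus strand: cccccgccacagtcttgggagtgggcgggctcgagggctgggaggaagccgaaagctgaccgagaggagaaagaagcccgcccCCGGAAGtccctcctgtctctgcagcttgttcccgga

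NDUFS3 held the ETS core on both strands, and NDUFA10 held none of these letters in its window. The NRF1 site was in 4 of 68 member promoters (5.88%, against 1.36% of all 27305 promoters and 1.75% of the 15843 of protein-coding genes). The longer ETS site CCGGAAGT was in 10 (14.7%, against 4.44% and 6.19%) and the YY1 site in 6 (8.82%, against 1.28% and 1.93%). The ETS core, which lies inside the longer ETS site and was added after these counts were seen, was in 19 (27.9%, against 10.7% and 14.2%). The ERR site TCAAGGTCA was in 1 (1.47%, against 0.359% and 0.24%). The homeobox letters TAATTA were in 0 of 68, against 4.98% and 3.34%. Members with an NRF1, longer ETS or YY1 site (19) had a median A549 change of −0.062, and the 49 without had −0.12. These matches are descriptions of letters.

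In PC9 no subunit gene was called with EN2. Of 83 genes, 0 rose and 0 fell by limma's test (lowest adjusted p = 0.732), where 0.148% of all genes rose and 0.219% fell. At an unadjusted p of 0.05, 1 was higher, ATP5MK, and 0 were lower, against 3.55% and 3.2% of all genes. The changes were above 0 in 61 of 83 (73.5%, against 52% of all genes), with a median of 0.029 against 0.0040. EN2 arrays lay above both vector arrays in 27 of 83 and below both in 6 of 83, where 17.7% and 15.2% of all genes did so. Without PC9 EN2 replicate 2 the median was 0.0048, against 0.014 over all genes. In that fit 39 of 83 changes were below 0 (47%, against 45% of all genes). Without replicate 1 the median was 0.054, against −0.0033 over all genes, and 15 of 83 were below 0 (18.1%, against 51.3%).

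Complex III was the most uniform in PC9, with all 8 changes above 0, from 0.029 (UQCR10) to 0.081 (UQCRC2), and a median of 0.069. UQCRQ, a small subunit, read 12.36 and 12.36 with EN2 and 12.28 and 12.29 with vector. EN2 arrays lay above both vector arrays in 5 of the 8, against 17.7% of all genes, and none passed the test. Complex IV had 14 of 17 above 0 (median 0.037), including all 11 general subunits. COX4I1 read 11.94 and 11.93 against 11.84 and 11.88 (0.078, limma adjusted p = 0.931). The extremes of complex IV were the dim genes COX6A2 (0.16) and COX8C (−0.17).

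In complexes I, II and V of PC9 the medians were 0.027, 0.0046 and 0.020. NDUFV2, the smaller flavoprotein partner in complex I, was highest there (0.12, limma adjusted p = 0.902). In complex II, SDHD was at 0.059, and SDHA and SDHC stood at 0.00091 and 0.0046. In complex V, ATP5MK, a small membrane subunit that links the enzyme in dimers, read 12.59 and 12.60 against 12.45 and 12.52 (0.11). ATP5MGL, a dim copy of ATP5MG, was lowest (−0.12). Of the head genes, ATP5F1E alone was above 0 (0.031).

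The change with EN2 was next set against the line it was measured in, as the A549 change minus the PC9 change. The measured rise of EN2 itself passed the test in A549 and not in PC9, as given above. Line and EN2 level therefore cannot be told apart in this contrast. No member was called in this difference (lowest adjusted p = 0.138 by limma, for ATP5PB), where 0.46% of all genes were called higher and 0.323% lower. At an unadjusted p of 0.05, 17 members were lower and 0 higher, against 5.55% and 6.37% of all genes. The 17 became 3 without A549 EN2 replicate 1, 6 without A549 vector replicate 2, 1 with the 18S rRNA covariate and 3 without the outer 18S rRNA arrays. The median difference was −0.14 against −0.0031 over all genes, and 77 of 83 were below 0. By complex the medians were −0.16 for I, −0.18 for II, −0.12 for III, −0.084 for IV and −0.14 for V. With the 18S rRNA covariate the median over all members was −0.069.

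ATP5PB showed the opposite order in the lines. In A549 its EN2 arrays lay below the vector arrays, as given above, and in PC9 it read 12.43 and 12.44 with EN2 against 12.34 and 12.36 with vector. The difference was −0.29 ± 0.072 (SE) and was not called. Such a pattern, EN2 below both vector arrays in A549 and above both in PC9, was present in 21 of 83 members, where 3.97% of all genes had it. These were 7 genes of complex I, 5 of complex III, 4 of complex IV and 5 of complex V. A change below 0 in A549 and above 0 in PC9 was present in 55 of 83 (66.3%, against 25.5% of all genes). This count is not separate from the shares within each line, 76 of 83 below 0 in A549 and 61 of 83 above 0 in PC9. The PC9 share moved with 1 array, as given above.

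**Figure D3:**
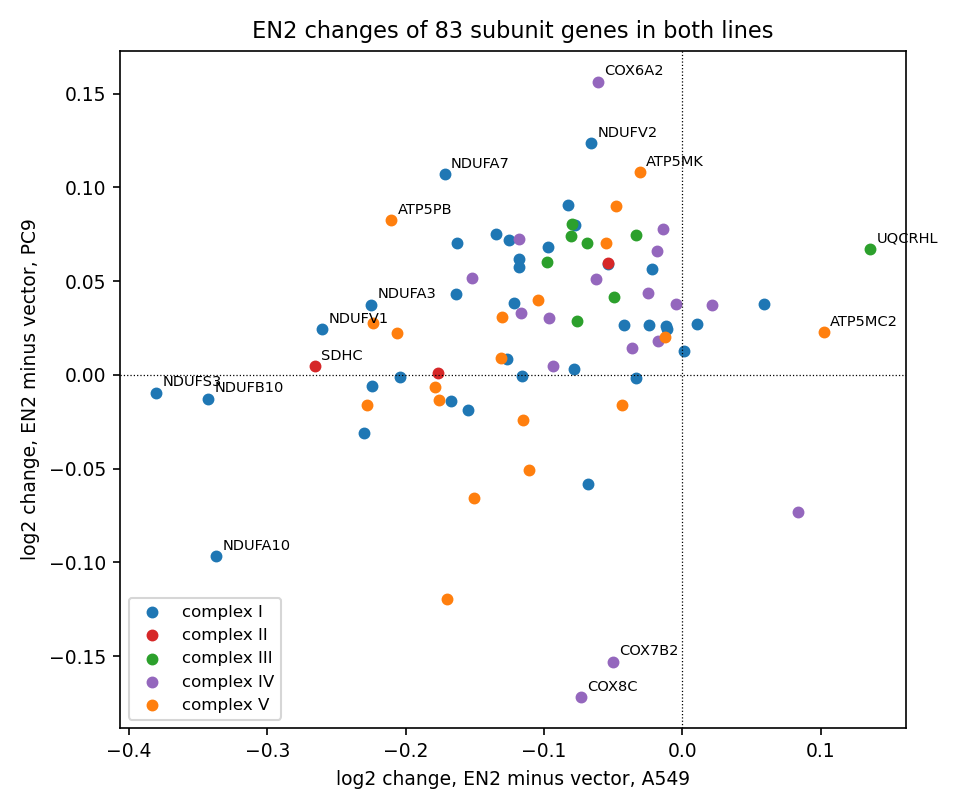
Log2 change with EN2 (EN2 minus vector) of the 83 subunit genes in A549 on the x axis and PC9 on the y axis, coloured by complex. The points are genes, and 55 of them lie in the field below 0 in A549 and above 0 in PC9.

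Averaged over both lines, no member was called (lowest adjusted p = 0.0732 by limma, for NDUFA10), where 0.559% of all genes were called higher and 0.521% lower. At an unadjusted p of 0.05, 10 were lower and 0 higher, against 5.72% and 7.55% of all genes. The median average change was −0.030. By complex the medians were −0.031 for I, −0.088 for II, −0.0014 for III, −0.0057 for IV and −0.064 for V. These comparisons use the same arrays as the changes within each line.

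The vector controls showed how these genes differed between the lines without EN2. Of 83 members, 23 were higher in A549 and 40 were higher in PC9 by limma's test, where 46% of all genes were called higher in A549 and 29.7% lower. The median difference, A549 minus PC9, was −0.14 for members and 0.17 over all genes. The labels do not say whether the lines were normalised together, so the zero of this scale is not known. Subtracting each array's median gave 14 higher and 52 lower and a member median of −0.38, and averaging the probe sets of each gene gave 29 and 31 and a median of 0.019. The sign of the median therefore changes with how a gene is summarised, and the large differences of single genes are given instead.

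ATP5MC1, a c-ring gene, was 2.93-fold higher in A549, with 10.96 and 11.03 on the vector arrays against 9.44 and 9.44 in PC9 (limma adjusted p = 3.11e-08). The other c-ring genes did not follow it alike, with ATP5MC2 higher in A549 by 0.30 and ATP5MC3 lower by 0.66 on the log2 scale. In complex I, NDUFB8 was 2.6-fold higher in A549 (11.10 and 11.21 against 9.82 and 9.73) and NDUFV3 2.53-fold (9.85 and 9.91 against 8.58 and 8.51). COX4I2, the lung form of the complex IV subunit, was 2.21-fold higher in A549 (limma adjusted p = 3.5e-06). COX5A was also higher in A549, by 0.68.

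UQCR10, a small subunit of complex III, was 2.44-fold higher in PC9, with 12.81 and 12.79 against 11.51 and 11.53 in A549 (limma adjusted p = 1.14e-08). In complex I, NDUFS5 read 11.94 and 11.85 in PC9 against 10.73 and 10.93, and NDUFS6 read 12.19 and 12.09 against 11.09 and 11.13. A dim second probe set of NDUFS5 had the opposite sign (0.53, A549 minus PC9). SDHA was 2.06-fold higher in PC9 (10.99 and 11.07 against 9.94 and 10.04), although a further, dim probe set had the opposite sign. These 4 genes were the members at least 2-fold higher in PC9, and ATP5MC1, NDUFB8, NDUFV3 and COX4I2 those at least 2-fold higher in A549. UQCR10, ATP5MC1, NDUFB8, NDUFV3, SDHA, NDUFS6, COX5A and COX4I2 kept their direction and call under quantile normalisation, median centring and the mean of all probe sets. NDUFS5 was not followed singly in those fits. In complex V, ATP5F1D of the head was lowest in A549 against PC9 (−0.94), and in complex IV it was COX8A (−0.56). In complexes II and III the highest were SDHC (0.27) and UQCRB (0.29).

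**Figure D4:**
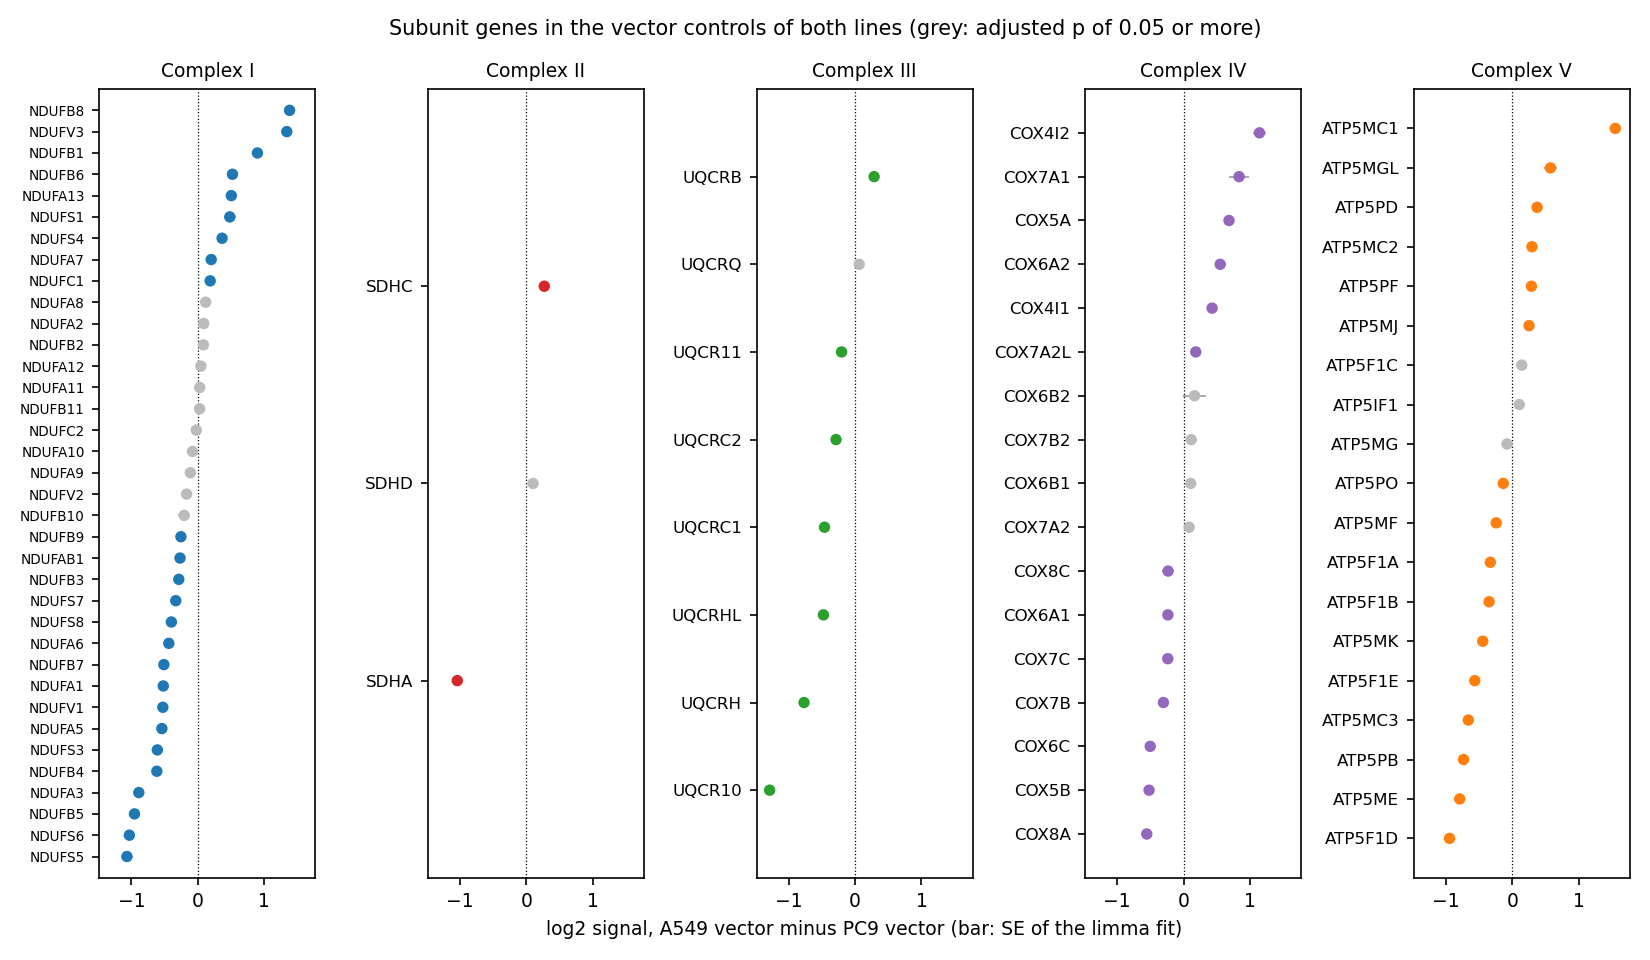
Difference in log2 signal between the vector arrays of A549 and of PC9 (A549 minus PC9) for each subunit gene, by complex. Points are genes, bars are standard errors of the limma fit, and grey points did not pass an adjusted p of 0.05. Genes lie on both sides of 0 in every complex, from −1.29 for UQCR10 to 1.55 for ATP5MC1.

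Probe sets of a member did not always give the same sign. Of 50 members with several, all probe sets had the same sign in 32 for the A549 change, in 25 for the PC9 change and in 25 for the difference between vector controls. Many of the other probe sets are dim.

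Other mitochondrial gene groups give the surroundings of these values in A549. Of 46 measured assembly factors, which build the complexes, 0 rose and 0 fell, and 31 were below 0 (median −0.087). Of 76 mitochondrial ribosomal proteins, 0 rose and 0 fell, and 61 were below 0 (median −0.082). Of 16 enzymes of the tricarboxylic acid cycle, 0 were called and 14 were below 0 (median −0.13). At an unadjusted p of 0.05 the assembly factors had 7 lower and 0 higher, the ribosomal proteins 16 and 1, and the cycle enzymes 6 and 0, against 7.54% lower and 9.87% higher of all genes. These shares below 0 all exceeded the 50.6% of all genes.

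Among 21 electron carriers and enzymes that feed the chain, 1 fell and 1 rose in A549 (1.15% and 1.57% of all genes). ETFB, a subunit of the flavoprotein that brings electrons from fatty acid oxidation, read 9.50 and 9.38 with EN2 against 9.89 and 9.96 with vector. It fell by 0.49 ± 0.066 (SE; limma adjusted p = 0.00627). In PC9 ETFB read 11.33 and 11.37 against 11.15 and 11.23 (0.16, limma adjusted p = 0.711), and the difference between the lines was called (−0.65, limma adjusted p = 0.0185). GPD2, the mitochondrial glycerol-3-phosphate dehydrogenase, read 9.37 and 9.43 with EN2 and 8.97 and 8.97 with vector, and rose by 0.43 (limma adjusted p = 0.0215). GPD2 in PC9 read 9.59 and 9.78 against 9.62 and 9.65, with overlap. With the 18S rRNA covariate, 5 of all genes were called higher and 15 lower in A549, and 5 and 5 in the difference. Whether ETFB and GPD2 stayed called there is not given here.

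Regulators of mitochondrial genes, such as NRF1, GABPA and MYC, were not called in either line, 0 of 19. In A549, 10 of the 19 were above 0 and 9 below, with a median change of 0.013. In PC9, 5 were above 0 and 14 below, with a median of −0.025. MYC read 11.35 and 11.17 with EN2 in A549 against 10.98 and 11.05 (0.25, limma adjusted p = 0.171). NRF1 (0.23) and GABPA (0.23) were also among the 10 above 0. In PC9, none of the 5 other mitochondrial lists had a called member by limma, and at an unadjusted p of 0.05 they held 3 higher and 2 lower in all.

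COXFA4, long known as NDUFA4 and now assigned to complex IV, carries another symbol here. It stands outside the 83, as do the similarly named COXFA4L2 and COXFA4L3. COXFA4 read 12.54 and 12.53 with EN2 in A549 against 12.61 and 12.58 (−0.061), and in PC9 12.42 and 12.48 against 12.29 and 12.28 (0.17). COXFA4L3 was higher in A549 with EN2, at 10.32 and 9.89 against 9.47 and 9.41, without passing the test (0.67, limma adjusted p = 0.0562). COXFA4L2, which hypoxia is known to induce, had changes of 0.062 in A549 and −0.31 in PC9, neither called.

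**Figure D5:**
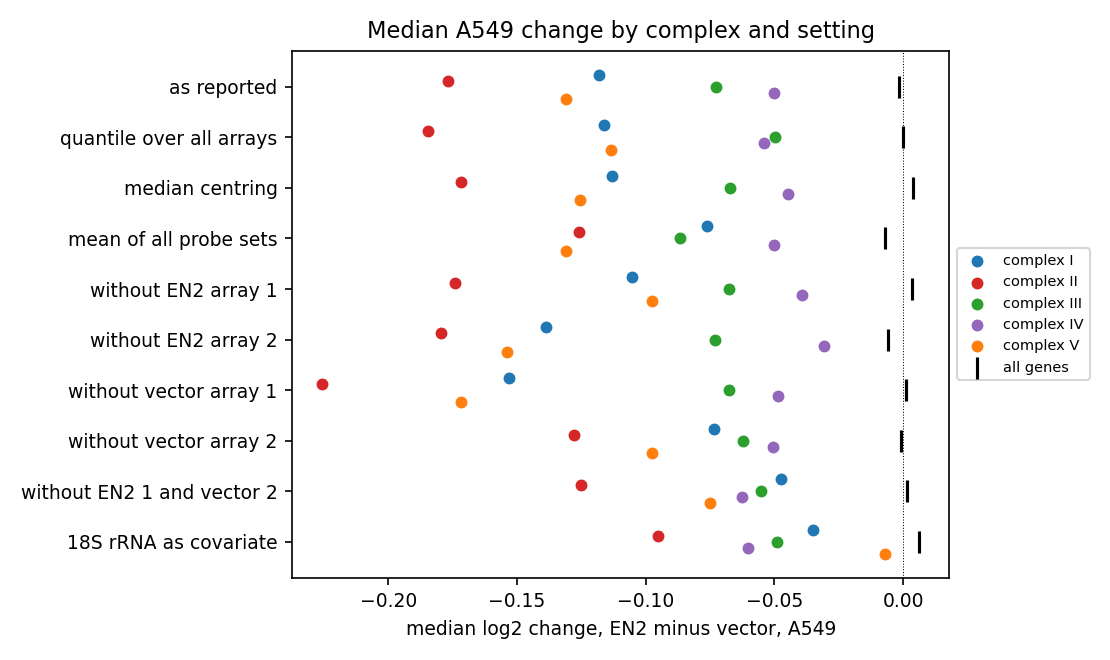
Median log2 change with EN2 in A549 for the genes of each complex under each way of processing the data, with the median of all genes as a black tick. Points are medians over the genes of a complex. In the main fit they run from −0.18 for complex II to −0.050 for complex IV, and with the 18S rRNA covariate from −0.095 to −0.0072.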

How the data were processed

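RNA of 8 samples was hybridised to single-colour arrays. Per the submitters' processing notes, the deposited log2 signals were summarised by RMA. Its version, and the annotation behind it, were not given in the sources used here. Of 49495 probe sets, 45284 carried 1 symbol, and each of 18244 genes was represented by its brightest such probe set over the 8 arrays. Members had 190 probe sets, and 6 more that also name another gene were not used.

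All 8 arrays entered a limma 3.58.1 model of 4 group means in R 4.3.3 (trended eBayes, 4 residual degrees of freedom). Two-sided p-values were adjusted by Benjamini-Hochberg over all genes, with calls at an adjusted p below 0.05. An exact permutation of 2 arrays against 2 cannot give a p below 0.333. The number of arrays limits the precision.

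The members and lists were chosen with earlier results of these data known. Named genes were the called members, the extremes of each complex in each line and between vector controls, isoform pairs, core subunits and called members of the other lists. Members near the threshold in A549 and COXFA4L3 were named after their values were seen. The regulators MYC, NRF1 and GABPA were named outside these rules. Motifs were exact matches in RefSeq promoters. The fit was tested on simulated data. Alternatives were the prior variance, filters on dim genes, normalisation, the choice of probe sets, the arrays fitted, a replicate block, the 18S rRNA signal and leaving out arrays.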

Additional observations from a re-analysis of the deposited data

Results flagged for a closer look

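The median over the complex III genes lay below the vector controls on both A549 EN2 arrays and above them on both PC9 EN2 arrays. Against the vector mean it was −0.073 and −0.068 on the A549 EN2 arrays and 0.067 and 0.072 on the PC9 EN2 arrays, and the median of the differences between lines was −0.12. The median over the complex IV genes was arranged alike, with −0.031 and −0.039 in A549, 0.029 and 0.028 in PC9, and a median difference of −0.084. Of the single genes, 5 of 8 in complex III and 4 of 17 in complex IV had this arrangement, against 3.97% of all genes. In complexes I, II and V, 7 of 36, 0 of 3 and 5 of 19 genes had it. The difference of the medians was not tested for complex III or IV, and no single gene of these was called in it by limma. The vector medians of a line mirror each other around 0, since the vector mean is the reference. For complex III they were 0.0053 and −0.0053 in A549, and −0.00045 and 0.00045 in PC9. For complex IV they were 0.0041 and −0.0041, and −0.014 and 0.014. Lying outside them is therefore no test of a change. EN2 itself passed the test in A549 alone.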

How the results depend on the processing

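The A549 median stayed below 0 and the PC9 median above 0 in all fits run. Without PC9 EN2 replicate 2, however, the PC9 median of the members (0.0048) was under that of all genes (0.014). In that fit 39 of 83 members were below 0 (47%, against 45% of all genes). The medians of complexes I to V were then −0.0013, −0.037, 0.067, 0.029 and −0.025. The 2 members called lower in A549 became 0 with a constant prior variance, 1 with the mean of all probe sets, 4 of 190 with every probe set tested, 0 with the A549 arrays alone, 0 with the 18S rRNA covariate and 0 without the outer 18S rRNA arrays. Leaving out an array gave 0 to 3 calls and an A549 median of −0.11 to −0.069. Without a PC9 array the A549 changes stay as they were, and the calls move with the shared spread. The 18S rRNA covariate gave medians of −0.031 in A549, −0.069 for the difference and −0.0071 for the average. Without the outer arrays these were −0.059, −0.090 and −0.011. With the covariate NDUFB10 in A549 turned to 0.013, and 54 of 83 members were below 0 there. Leaving out an array gave a PC9 median of 0.0048 to 0.054 and 0 to 1 calls in the average.

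Over all genes, A549 calls (287 higher, 209 lower) were 54 and 58 without A549 EN2 replicate 1, 57 and 59 without A549 vector replicate 2, 51 and 41 with the A549 arrays alone, 5 and 15 with the 18S rRNA covariate, 9 and 16 without the outer arrays, and 822 and 571 with the replicate block. PC9 calls (27 and 40) were 7 and 16 with the PC9 arrays alone, 20 and 26 with the mean of all probe sets, and 50 and 76 with the block. Calls in the difference (84 and 59) were 5 and 5 with the covariate, 0 and 0 without the outer arrays, and 264 and 162 with the block. Calls in the average (102 and 95) were 16 and 29, 18 and 24, and 371 and 274 in the same order. With the replicate block, 12 members were lower in A549, 1 in the difference and 2 in the average. The labels give no shared batch for a replicate number, and same-numbered deviations correlated at r = 0.349 in A549 and 0.0656 in PC9, so the pairing is not established.

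For the vector controls the member median was −0.079 after quantile normalisation, −0.38 after median centring (14 higher), 0.019 with the mean of all probe sets and 0.024 with every probe set (64 higher, 73 lower). It was −0.17 without the outer arrays, −0.20 for genes above 10, a limit added after seeing the data, and −0.17 to −0.099 when leaving out an array. With the 18S rRNA covariate it was −0.74, with 0 higher and 0 lower, since that signal differs mainly between the lines. The causes of other movements were not tested.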
